A study of Mus musculus with 8 samples.

Results

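Stathmins and neuronal tubulins are the regulators and building blocks of the microtubules that fill an axon. Their 9 genes examined here are the stathmins Stmn1, Stmn2, Stmn3 and Stmn4, the beta-tubulins Tubb2a, Tubb2b, Tubb3 and Tubb6, and the alpha-tubulin Tuba1a. They were taken by gene name from the 21761 genes of the deposited counts table, and all 9 passed the filter on low counts. The list was chosen by gene name with the log2 fold changes and adjusted p-values of this same contrast known, among them a call on Stmn4. Its values in the contrast are therefore given as a description and not as independent support for any change.

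The 8 libraries hold ribosome-bound RNA isolated by translating ribosome affinity purification, in which a tagged ribosomal protein is pulled down. Their labelled source is the dopaminergic neuron of the mouse midbrain, strain C57BL/6. In 4 of them the mice had received MPTP-HCl intraperitoneally once a day for 5 days (30 mg/kg, as free base), and in the other 4 saline on the same schedule. In both groups tissue was taken 4 days after the last injection. MPTP is a neurotoxin that is converted in the brain to an inhibitor of mitochondrial complex I, which dopaminergic neurons take up through the dopamine transporter. The sources used here do not give the transgene that tags the ribosomes, its promoter, the age of the mice or any pooling of animals. The labels' protocol covers samples from substantia nigra, from the ventral tegmental area and from both combined, without saying which applies, and the name of the deposited table carries the letters SN.

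Microtubules grow and shrink by adding and losing dimers of alpha- and beta-tubulin. Stathmins bind a pair of such dimers and keep them from assembling, and phosphorylation of the stathmin releases them. Stmn1 is cytosolic, whereas Stmn2, Stmn3 and Stmn4 carry an amino-terminal extension that is palmitoylated on cysteines and holds the protein on Golgi and vesicle membranes, including those of growth cones. Tubulin isotypes differ mostly in their acidic carboxy-terminal tails, and Tubb3 is the beta-tubulin used as a neuronal marker. Stathmins and tubulins are well known from growing and regenerating peripheral axons.

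The first 40 codons of each stathmin coding sequence show the difference between the cytosolic member and the membrane-bound ones. They were read from the longest complete coding sequence of each gene in the GENCODE transcripts of GRCm38, on the coding strand, 5′ to 3′. Capitals mark in-frame cysteine codons, and codons are counted from 1 at the start codon.
Stmn1: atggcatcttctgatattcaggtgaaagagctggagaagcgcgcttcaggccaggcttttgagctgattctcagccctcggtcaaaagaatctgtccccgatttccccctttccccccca
Stmn2: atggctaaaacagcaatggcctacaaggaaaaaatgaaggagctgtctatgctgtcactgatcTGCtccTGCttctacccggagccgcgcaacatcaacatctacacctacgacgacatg
Stmn3: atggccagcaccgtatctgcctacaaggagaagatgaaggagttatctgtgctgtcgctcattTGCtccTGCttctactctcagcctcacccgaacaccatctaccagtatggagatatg
Stmn4: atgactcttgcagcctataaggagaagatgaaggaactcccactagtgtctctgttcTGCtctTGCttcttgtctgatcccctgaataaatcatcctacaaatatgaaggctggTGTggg

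Stmn1 had 0 cysteine codons in this stretch. Stmn2 and Stmn3 each had a pair, at codons 22 and 24, and Stmn4 had the same arrangement at codons 20 and 22 with a further one at codon 39. These longest coding sequences held 149, 179, 180 and 216 codons in Stmn1, Stmn2, Stmn3 and Stmn4. Shorter forms of a gene were not compared, so cysteine positions, lengths and identities hold for the longest form only. Between the 4 genes, coding identity ranged from 53.8% (Stmn1 with Stmn4) to 74.0% (Stmn2 with Stmn3). Gaps in the alignment count as differences, so unequal lengths lower it. Stmn1 had 357 identical bases with Stmn4, the longest of them, against 336 with Stmn2 and 333 with Stmn3. No 100-base window of a Stmn2, Stmn3 or Stmn4 transcript occurred in a transcript of another GENCODE gene, the read length being 100 bases. For Stmn1 12.83% of windows did, all of them in a processed pseudogene.

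The beta-tubulins Tubb2a, Tubb2b and Tubb3 are more alike over the whole coding sequence. Identity was 96.5% for Tubb2a with Tubb2b, 84.0% for Tubb2a with Tubb3 and 83.9% for Tubb2b with Tubb3. The ends of Tubb2a and Tubb2b were compared base by base, and Tubb3 was not aligned with them. The last 75 coding bases before the stop codon encode the carboxy-terminal tail. Capitals in Tubb2b mark bases that differ from Tubb2a. Tubb3, whose coding sequence has another length, is printed without capitals, and its bases do not stand below their counterparts.
Tubb2a: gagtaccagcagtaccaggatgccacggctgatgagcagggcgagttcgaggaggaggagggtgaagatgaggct
Tubb2b: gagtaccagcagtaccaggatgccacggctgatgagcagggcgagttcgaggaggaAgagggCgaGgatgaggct
Tubb3: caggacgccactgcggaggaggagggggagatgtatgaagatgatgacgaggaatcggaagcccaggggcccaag

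Tubb2a and Tubb2b differed at 3 bases of this stretch, all at the third base of a codon, and at 47 of 1338 bases of the coding sequence, stop codon included. Of the 100-base windows of Tubb2a, 36.93% also occurred in another gene, against 26.01% for Tubb2b and 65.85% for Tuba1a. The genes sharing most windows were each other for Tubb2a and Tubb2b, and Tuba1c for Tuba1a. The sources used here do not say how the authors counted reads that fit several genes, so the counts of Tubb2a, Tubb2b and Tuba1a are uncertain in how they divide reads among copies. No window of Tubb3 or Tubb6 was shared. The table has its own row for the pseudogene Tubb2a-ps2, with 300 to 542 counts per library.

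Positions are those of GENCODE on GRCm38, the assembly that mm10 names, and all 9 genes are protein-coding. Stmn1 lies on chromosome 4 (134468320 to 134473843, plus strand), Stmn2 on chromosome 3 (8509360 to 8561606, plus strand), Stmn3 on chromosome 2 (181306459 to 181314500, minus strand) and Stmn4 on chromosome 14 (66344296 to 66361680, plus strand). Tubb2a (34074274 to 34078007) and Tubb2b (34126748 to 34130466) are neighbours on the minus strand of chromosome 13. Tubb3 is on chromosome 8 (123411424 to 123422015, plus strand), Tuba1a on chromosome 15 (98949837 to 98953703, minus strand) and Tubb6 on chromosome 18. The exons of Stmn2, Stmn3, Stmn4 and the 4 beta-tubulins overlap no exon of another gene. Tuba1a shares 26.23% of its exonic bases with the annotated gene Gm49450 on the same strand, and Stmn1 shares 66 bases with a microRNA gene.

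Library totals lay between 54192354 and 78892061 counts, and each library differed from the others of its group by more than sampling noise. The labels number the replicates without saying that they are separate animals, so errors and p-values measure only how far the libraries differ, and that spread may be technical. Markers of the labelled cell type were present throughout: the 17 dopaminergic genes summed to 9571 to 11343 CPM in MPTP and 8545 to 14183 CPM in saline, where CPM is the depth-scaled count, on library sizes scaled by TMM. The overlap of these ranges rests on saline 3, since saline 1, 2 and 4 held 13196 to 14183 CPM, above each MPTP library. The library saline 3 stood apart from the other saline libraries. It had the lowest dopaminergic sum and the highest oligodendrocyte sum (1747 CPM, against 825 to 993 CPM in saline 1, 2 and 4). In the first principal component it lay at -24.1, beside the MPTP libraries (-23.0 to -15.3) and away from saline 1, 2 and 4 (26.9 to 38.9). The log2 fold changes of the 9 genes and the medians of the gene lists are therefore also given without saline 3.

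In saline, per kilobase of exon, Tuba1a was the most abundant of the 9 genes at 1530 CPM per kb, with the 4 libraries between 1232 and 1671. It ranked 9 among the 15381 tested genes with a known length. Stmn3 followed at 692 CPM per kb (623 to 754, rank 31). Tubb2a at 350 (277 to 440, rank 86) and Stmn1 at 326 (278 to 354, rank 94) came next, and their ranges overlapped. Tubb3 at 178 (142 to 197) overlapped Stmn2 at 136 (115 to 173), which overlapped Tubb2b at 101 (78.6 to 127). Stmn4 stood below all of these at 25.1 CPM per kb (19.6 to 27.9, rank 1877). Tubb6, a minor beta-tubulin found in many tissues, was last at 4.24 CPM per kb (3.6 to 4.87, rank 7323). With the longest transcript as the length, Stmn1 (591 CPM per kb) passed Tubb2a and Stmn2 (224) passed Tubb3, and the other places were the same.

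**Figure D1:**
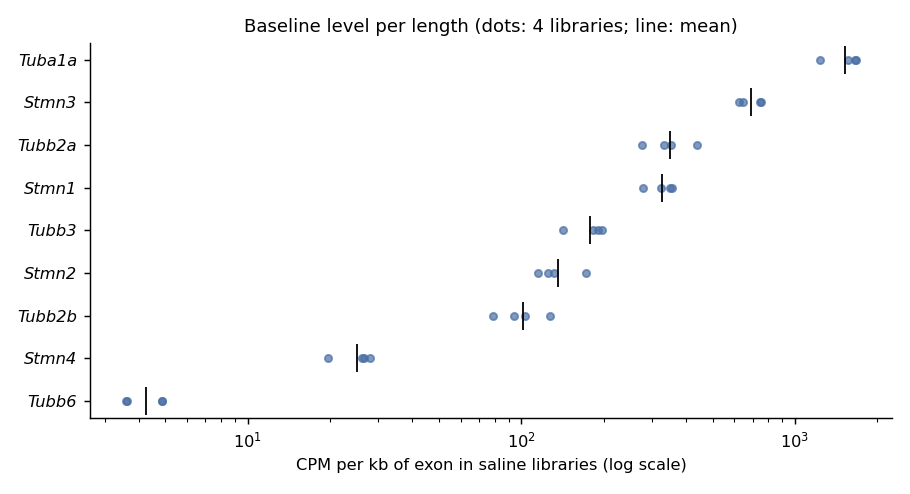
Level of the 9 genes in the 4 saline libraries, in CPM per kilobase of exon on a log axis; dots are libraries and lines their mean. Tuba1a sits at 1530 and Stmn3 at 692 CPM per kb, while Stmn4 (25.1) and Tubb6 (4.24) lie below all the others.

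The comparison of MPTP with saline asks how a toxin that injures dopaminergic neurons alters the RNA they translate. Among the 9 genes, Stmn4 was 2.02-fold higher in MPTP, and the other 8 had folds between 0.907 and 0.987. By edgeR's quasi-likelihood test 1 of the 9 genes was called, at an adjusted p of 0.05 over all genes. Over all 15999 genes tested 0.106% were called, 0.075% as higher and 0.0313% as lower, and because the list was made with this call known nothing is read from the count. In bulk samples, fewer cells of a type and less RNA per cell cannot be told apart.

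Stmn4, also called RB3, is the stathmin with several splice forms and is mostly found in the nervous system. Its counts were 6845, 7058, 5704 and 9299 in MPTP replicates 1 to 4 and 3341, 2517, 3362 and 2631 in saline replicates 1 to 4. As CPM these were 83.5, 97.7, 84.4 and 123 in MPTP and 51.1, 37.6, 53.4 and 50.0 in saline. All 4 MPTP libraries were above all 4 saline libraries, a separation seen in 4.19% of the genes tested, and in this direction in 2.04%. MPTP 4 was the highest of all, and saline 3, which stood apart in other genes, was the highest saline library.

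Stmn4 averaged 97.2 ± 18.5 CPM with MPTP against 48.0 ± 7.07 CPM with saline (here and below, ± is the SD over the 4 libraries of a group). Its log2 fold change was 1.02 (SE 0.13, 95% interval 0.74 to 1.29), with an edgeR adjusted p of 0.00163 that was known when the list was made. Without saline 3 the log2 fold change was 1.07. Leaving out each library in turn gave 0.88 (without MPTP 4) to 1.08 (without MPTP 1), and the call held each time. Even at its MPTP level, 50.7 CPM per kb, Stmn4 stayed below each other stathmin.

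Ratios within a library need no scaling between libraries. For each count of Stmn3, the stathmin with the highest level per kilobase, MPTP replicates 1 to 4 had 0.112, 0.122, 0.109 and 0.162 counts of Stmn4, and saline replicates 1 to 4 had 0.0697, 0.0444, 0.0754 and 0.0584. Relative to Stmn1 the ratio was 0.136 to 0.232 in MPTP and 0.0554 to 0.1 in saline. Relative to Stmn2 it was 0.102 to 0.177 in MPTP and 0.0387 to 0.0826 in saline. In none of these 3 ratios did the groups overlap. All 3 hold the same Stmn4 counts, so they largely restate its separation and are not separate support for it.

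**Figure D2:**
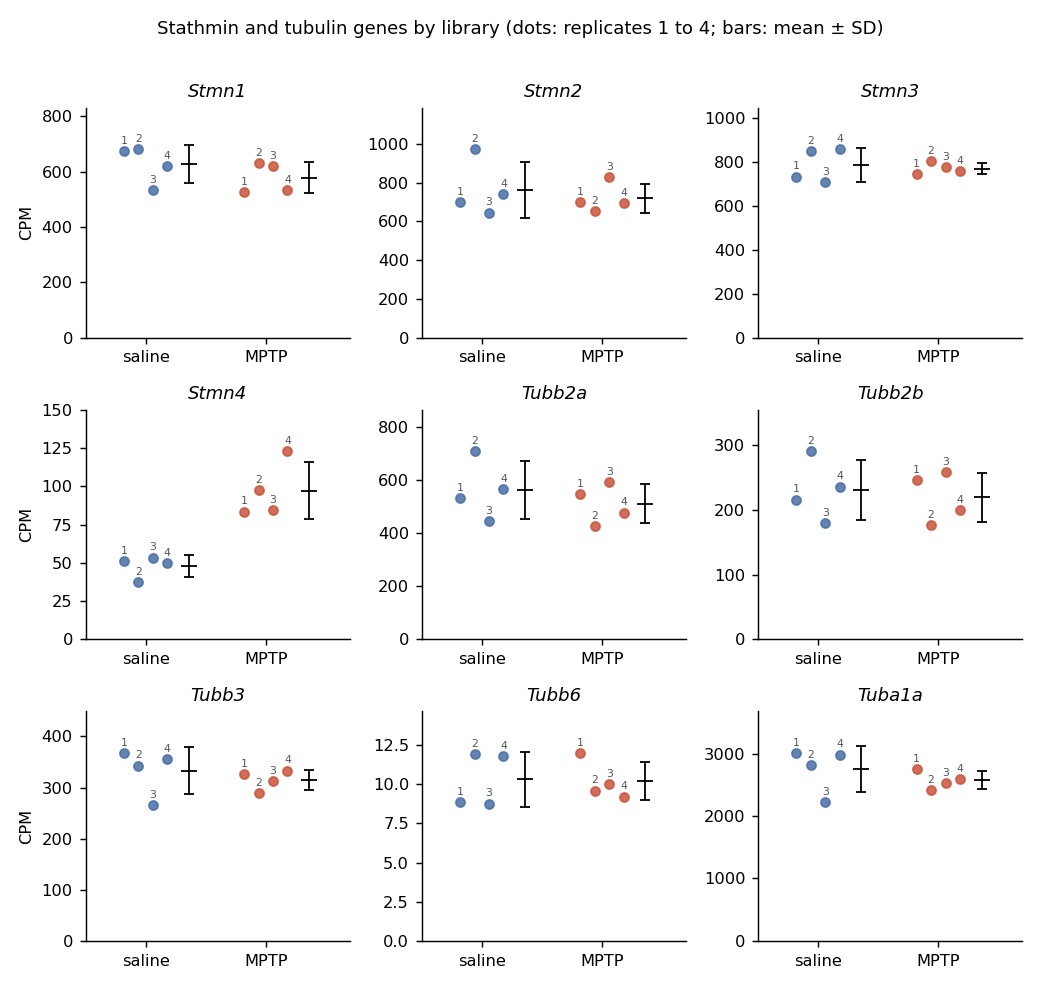
CPM of the 9 genes in each library; dots are replicates 1 to 4 of saline (blue) and MPTP (red), bars are the mean ± SD, and each vertical axis starts at 0. Stmn4 is between 83.5 and 123 CPM in MPTP and between 37.6 and 53.4 CPM in saline, while the groups overlap in the other 8 genes.

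Stmn2, also called SCG10, is the stathmin of growth cones and is often used as a marker of regenerating sensory axons. It was at 699, 652, 829 and 696 CPM in MPTP replicates 1 to 4 and at 698, 972, 646 and 741 CPM in saline replicates 1 to 4. Every MPTP library lay within the saline range, whose upper end was set by saline 2. The log2 fold change was -0.088 (SE 0.12, 95% interval -0.34 to 0.16), a fold of 0.941 with an interval of 0.791 to 1.12. A rise of the size seen for Stmn4 lies outside that interval.

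Stmn3, also called SCLIP, was at 743, 803, 775 and 759 CPM in MPTP and at 733, 848, 708 and 857 CPM in saline. Its MPTP libraries lay within the saline range and close together, with a coefficient of variation of 3.3%. The log2 fold change was -0.031 (SE 0.088, 95% interval -0.22 to 0.16). Stmn1, the cytosolic stathmin of dividing and immature cells, was at 526, 632, 621 and 532 CPM in MPTP and 673, 680, 534 and 621 CPM in saline. MPTP 1 and MPTP 4 lay just below the lowest saline library, and the other pair lay within the saline range. The log2 fold change of Stmn1 was -0.12 (SE 0.099, 95% interval -0.33 to 0.091).

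Tubb3, the neuron-specific class III beta-tubulin, was at 326, 289, 313 and 333 CPM in MPTP and at 368, 343, 265 and 356 CPM in saline. All MPTP libraries were above saline 3 and below saline 1, 2 and 4. With all 8 libraries the log2 fold change was -0.079 (SE 0.10, 95% interval -0.29 to 0.13), and without saline 3 it was -0.17 (edgeR adjusted p = 0.268). Tuba1a, the main alpha-tubulin of growing neurons, had the same arrangement. It was at 2752, 2411, 2528 and 2594 CPM in MPTP and at 3012, 2816, 2221 and 2983 CPM in saline. The log2 fold change of Tuba1a was -0.10 (SE 0.11, 95% interval -0.32 to 0.12), and -0.19 without saline 3 (edgeR adjusted p = 0.227).

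Tubb2a, a major beta-tubulin of the adult brain, was at 548, 426, 591 and 477 CPM in MPTP and at 533, 709, 446 and 565 CPM in saline. Tubb2b, best known from the developing cortex, was at 246, 177, 258 and 200 CPM in MPTP and at 216, 291, 180 and 236 CPM in saline. Both genes were highest in saline 2 and lowest in MPTP 2, and in each 3 of the 4 MPTP libraries lay within the saline range. Their log2 fold changes were -0.14 (SE 0.13) and -0.066 (SE 0.14), with 95% intervals of -0.41 to 0.13 and -0.36 to 0.23. Without saline 2 Tubb2a was at -0.0104 and Tubb2b at 0.0659. The ratio of Tubb2a to Tubb2b counts stayed between 2.23 and 2.47 in all 8 libraries, and the shared windows named above bear on both genes.

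Tubb6 rested on 674 to 980 counts per MPTP library and 552 to 793 per saline library. Its CPM were 12.0, 9.59, 9.98 and 9.21 in MPTP and 8.85, 11.9, 8.76 and 11.8 in saline, so that 3 of the 4 MPTP libraries lay within the saline range. The log2 fold change was -0.0195 (SE 0.16), and the 95% interval of the fold, 0.78 to 1.25, was the widest of the 8 genes relative to its centre.

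Of the 9 log2 fold changes 8 were below 0, with a median of -0.079, against 49.9% below 0 and a median of 0.001 over all tested genes. With the mean level of astrocyte, oligodendrocyte, microglia and endothelial markers (the non-neuronal score) as a covariate, all of these but Stmn1 turned above 0, at 0.013 to 0.11, and none was called. Saline 3 was the lowest saline library in 8 of the 9 genes, the exception being Stmn4. Without saline 3 the other 8 genes had log2 fold changes of -0.24 (Tubb2a) to -0.078 (Stmn3), and their lowest adjusted p by edgeR there was 0.227. Of the 17 dopaminergic markers, 14 also had log2 fold changes below 0 (median -0.145). Of these markers 0 were called by edgeR, DESeq2 or limma voom. By edgeR 2 were lower and 0 higher at an unadjusted p under 0.05, which is 11.8%, against 8.78% of all genes in either direction. Of the 15999 genes tested, 720 were lower and 685 higher at that threshold. The median of the markers was -0.264 without saline 3 and 0.04 with the covariate. Without saline 3 edgeR called 3 of the 17 lower, where 0.983% of all genes were called lower. Their part in the values of the 8 genes was not tested.

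**Figure D3:**
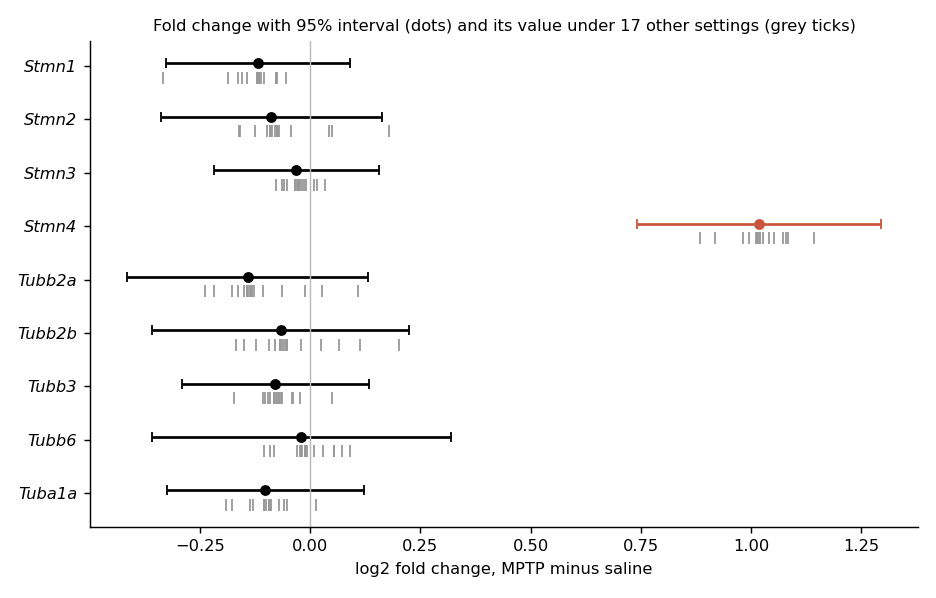
Log2 fold change of each gene, MPTP minus saline; dots with bars are the value from all 8 libraries and its 95% interval, and grey ticks are the values under 17 other settings or sets of libraries. Stmn4 is at 1.02 with ticks from 0.88 to 1.14, and the intervals of the other 8 genes include 0.

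Expressed as a share of all stathmin RNA per kilobase, Stmn4 made up 4.39% ± 0.884 with MPTP against 2.16% ± 0.483 with saline, with ranges of 3.68% to 5.67% and 1.52% to 2.67%. Stmn3 held 58.6% and 58.7%, Stmn1 25.9% and 27.7%, and Stmn2 11.1% and 11.5%. The stathmins summed to 1157 ± 51.6 CPM per kb with MPTP and 1180 ± 109 with saline, so Stmn4 was a small part of the total in both groups. Beta-tubulins summed to 1303 ± 146 and 1426 ± 166 CPM per kb, and alpha-tubulins to 3589 ± 223 and 3815 ± 449.

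Among beta-tubulins the largest share belonged to Tubb4a, an isotype of neurons and oligodendrocytes, with 34.4% in MPTP and 35.8% in saline. Tubb2a held 24.3% and 24.4%, Tubb3 13.0% and 12.5%, Tubb2b 7.33% and 7.0%, and Tubb6 0.322% and 0.297%. For each of these 4 genes the group ranges of the share overlapped. Tuba1a held 39.3% to 40.2% of alpha-tubulin RNA with MPTP and 38.9% to 40.6% with saline, beside Tuba1b (34.6% and 34.2%) and Tuba1c (22.5% and 22.2%). These 3 genes share many windows, so the split among them is uncertain.

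**Figure D4:**
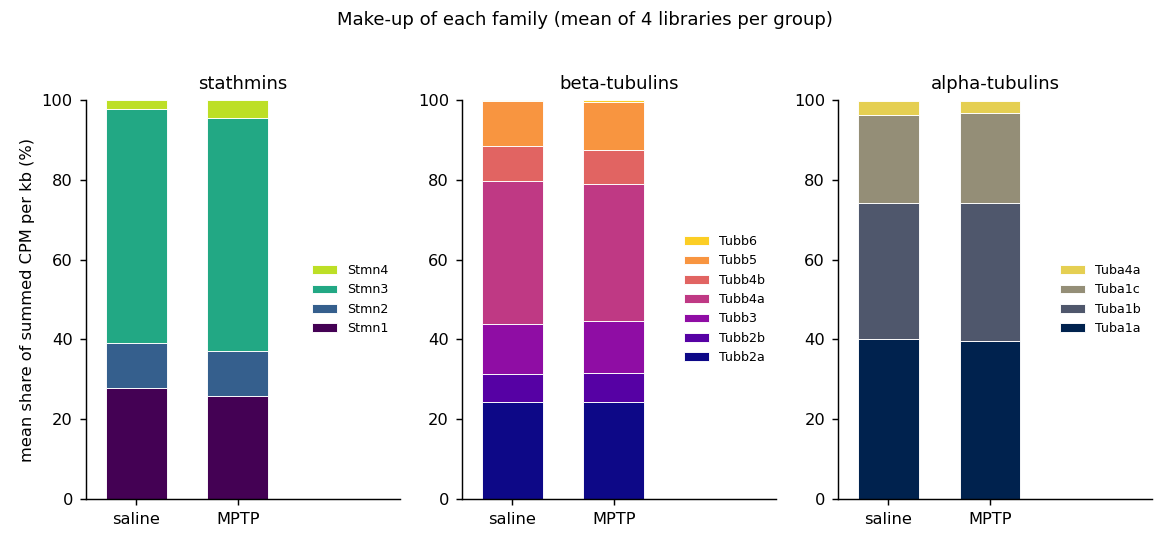
Mean share of each gene in the summed CPM per kb of its family, as stacked bars from 0 to 100% for saline and MPTP; genes under 0.2% in both groups are not drawn. The Stmn4 segment is 2.16% in saline and 4.39% in MPTP, and the tubulin segments differ little between the bars.

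As for Stmn4, the summed markers of oligodendrocytes, their precursors, astrocytes and newborn neurons in saline 1, 2 and 4 lay below those of all 4 MPTP libraries, and the dopaminergic sum lay above them. The 12 oligodendrocyte markers, none of them at 0 counts in all libraries, summed to 1200 to 1374 CPM in MPTP and 825 to 1747 CPM in saline, and 11 of the 12 had a log2 fold change above 0. Saline 3 held the most oligodendrocyte RNA of the 8 libraries (1747 CPM) and had 53.4 CPM of Stmn4, below each MPTP library. The 7 precursor markers summed to 40.5 to 55.1 CPM in MPTP, 31.0 to 33.6 CPM in saline 1, 2 and 4 and 59.8 CPM in saline 3, and all 7 had a log2 fold change above 0. The 12 astrocyte markers summed to 553 to 630 CPM in MPTP and 501 to 679 CPM in saline, and all 12 were above 0. The 12 microglia and macrophage markers summed to 35.6 to 44.8 CPM and 27.1 to 41.2 CPM (9 above 0). The 7 markers of newborn neurons summed to 57.6 to 68.8 CPM and 47.7 to 60.5 CPM (5 tested, 5 above 0). The 7 GABAergic markers summed to 364 to 465 CPM in MPTP and 354 to 526 CPM in saline (6 above 0). For the 6 glutamatergic markers the sums were 88.9 to 112 CPM and 72.6 to 118 CPM (5 above 0). For the 11 endothelial and mural markers they were 13.8 to 24.1 CPM and 12.0 to 29.1 CPM (5 above 0). The part of any of these cell types, dopaminergic neurons included, in the Stmn4 result was not tested. The non-neuronal score averages several marker lists and cannot separate them, and its overlap between the groups rests on saline 3. With that score for non-neuronal cells in the fit, the log2 fold change of Stmn4 was 0.98 (edgeR adjusted p = 0.00626). With the score in the fit and without saline 3 it was 1.14, and the call ended (edgeR adjusted p = 0.112).

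**Figure D5:**
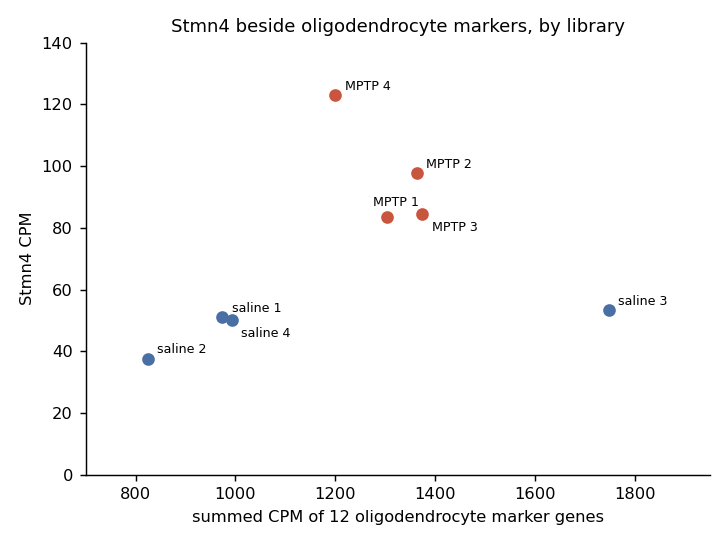
Stmn4 CPM against the summed CPM of 12 oligodendrocyte marker genes, 1 dot per library, MPTP in red and saline in blue. Saline 3 lies farthest right at 1747 CPM of markers with Stmn4 at 53.4 CPM, and the MPTP libraries lie above it at 83.5 to 123 CPM.

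The 5 genes whose log2 CPM followed Stmn4 most closely over the 8 libraries were Clcn7 (Pearson r = 0.964), Cdh2 (r = 0.960), Phc2 (r = 0.957), Tspan7 (r = 0.957) and Tnfrsf12a (r = 0.951), out of 12082 candidates. They are a lysosomal chloride transporter, N-cadherin, a Polycomb protein, a tetraspanin and the receptor of the cytokine TWEAK. Since the groups differ in Stmn4, genes that separate the groups in the same direction tend to score high, and no test is given. In each of the 5 the groups did not overlap, and none was called by edgeR over all genes. Tspan7 averaged 324 ± 33.4 CPM with MPTP against 238 ± 17.6 with saline, and Tnfrsf12a 5.57 ± 1.03 against 2.4 ± 0.651.

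Tubb2a, Tubb2b, Tubb3 and Tuba1a each had another tubulin among their closest 2 genes. For Tubb2a they were Soga3 (r = 0.981) and Tubb2b (r = 0.979), and for Tubb2b they were Pja1 (r = 0.983) and Tubb2a. Tuba1a was closest to Tuba1c (r = 0.982) and Tubb3 (r = 0.971), and Tubb3 to Nrxn3 (r = 0.983) and Tuba1a. Reads shared between copies bear on the pairs of like tubulins. No tubulin or stathmin was among the closest 2 of the rest. These were Shfm1 (r = 0.989) and Nsfl1c (r = 0.962) for Stmn1, Eif3e (r = 0.984) and Klhl12 (r = 0.981) for Stmn2, Yrdc (r = 0.950) and Chrnb4 (r = 0.926) for Stmn3, and Ska3 (r = 0.954) and Cuedc2 (r = 0.940) for Tubb6. All of these values are over the same 8 libraries and share their depth and scaling.

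Other genes of the microtubule system were taken from 10 lists of 167 genes, none of them among the 9. Of the 156 tested, 0 were called by edgeR, and 0 by DESeq2 or limma voom, where 0.331% and 0.075% of all genes were called (DESeq2 0.156% higher and 0.175% lower, voom 0.05% and 0.025%). An unadjusted p under 0.05 by edgeR was reached by 26 of them, 8 higher and 18 lower, which is 16.7% against 8.78% of all genes. Of all 15999 genes tested, 685 were higher and 720 lower at that threshold. Their median log2 fold change was -0.034, against 0.001 over all genes. Without saline 3, where edgeR called 1.84% of all genes (0.853% higher and 0.983% lower), 1 of these genes was called higher and 7 lower, and these are named below. The median over the 156 genes was then -0.071.

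The list medians given below are from all 8 libraries. Without saline 3 they were -0.138 for other tubulins, -0.072 for structural proteins, -0.186 for CRMP proteins, 0.053 for plus-end proteins and 0.109 for severing proteins. They were -0.107 for folding, -0.024 for modifying enzymes, -0.134 for kinases, 0.021 for palmitate enzymes and -0.114 for growth cone proteins. With the covariate the medians of the CRMP (0.049), plus-end (-0.016), severing (-0.084) and modifying (0.004) lists had the other sign.

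Among the 11 other tubulins tested, 9 had log2 fold changes below 0 (median -0.069). Tuba4a, the alpha-tubulin encoded without the terminal tyrosine, averaged 404 ± 40.5 CPM with MPTP against 495 ± 49.3 with saline. Its log2 fold change was -0.29 (edgeR adjusted p = 0.415), and -0.36 without saline 3, where it was called lower (edgeR adjusted p = 0.0464). Of its 100-base windows 32.37% also occurred in Stk16, which bears on its counts. Tubb4b had -0.21 (-0.10 without saline 2) and Tubb4a -0.18 (-0.0925 without MPTP 2).

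Structural microtubule-associated proteins had 13 of 24 below 0 (median -0.063). Map1b, the large axonal protein of growing neurites, averaged 1421 ± 32.7 CPM with MPTP against 1751 ± 220 with saline. The groups did not overlap for Map1b, with a log2 fold change of -0.30 (edgeR adjusted p = 0.415). Map6, which makes microtubules cold-stable, had -0.23, and its relative Map6d1 had 0.46. Without saline 3 Map1b was called lower (-0.37) and Map6d1 higher (0.70). The CRMP proteins, which carry tubulin dimers to the growing end, had 4 of 5 below 0 (median -0.075), with Dpysl4 at -0.27, Dpysl2 at -0.15 and Dpysl3 at -0.075. Without saline 1 Dpysl2 was at -0.0435. Leaving out single libraries moved Dpysl3 between -0.19 (saline 3) and -0.0123 (saline 2).

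Plus-end and polymerising proteins were evenly split, 12 above and 11 below 0 (median 0.002). The polymerase Ckap5 had a log2 fold change of -0.26, the end-binding protein Mapre1 -0.22 and the neuron navigator Nav3 0.22. Severing and depolymerising proteins had 7 of 11 above 0 (median 0.048), with the depolymerase Kif2a at -0.18 and spastin, Spast, at -0.094. Fignl1 had 1.29 (SE 0.77) from 0.638 ± 0.236 CPM with MPTP and 0.261 ± 0.199 with saline, so few counts lie behind it.

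Genes of tubulin folding had 17 of 21 below 0 (median -0.076). The chaperonin subunit Cct8 had -0.34, the prefoldin subunit Vbp1 -0.24 and the tubulin cofactor Tbca -0.25 (-0.13 without saline 2), and Cct8 was called lower without saline 3 (-0.43). Tubulin-modifying enzymes had 13 of 22 below 0 (median -0.021). The polyglutamylase Ttll7 averaged 222 ± 12.8 CPM with MPTP against 275 ± 27.6 with saline, a log2 fold change of -0.31 with groups that did not overlap. The deglutamylases Agbl2 (-0.32) and Agtpbp1 (-0.23) followed. Without saline 3 Ttll7 (-0.36) and Agbl2 (-0.40) were called lower.

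Kinases known to phosphorylate stathmins had 11 of 12 log2 fold changes below 0 (median -0.101), and in 4 of the 12 the groups did not overlap, against 4.19% of all genes. Camk4, a calcium-dependent kinase, averaged 35.2 ± 3.63 CPM with MPTP against 47.6 ± 6.43 with saline, with a log2 fold change of -0.43 (edgeR adjusted p = 0.321). Mapk9, which encodes the kinase JNK2, averaged 480 ± 35.0 against 611 ± 69.2 CPM, with a log2 fold change of -0.35 (edgeR adjusted p = 0.355). Uhmk1 had -0.40 (edgeR adjusted p = 0.415). Without saline 3 Mapk9 (-0.42) and Uhmk1 (-0.51) were called lower and Camk4 was not (edgeR adjusted p = 0.0568).

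Enzymes that add or remove palmitate had 10 of 14 above 0 (median 0.045). Zdhhc7, a Golgi palmitoyltransferase, had 0.31, Zdhhc2 -0.27 and Zdhhc5 -0.21 (-0.13 without saline 4). Growth cone proteins had 8 of 13 below 0 (median -0.034). The membrane-cytoskeleton protein Marcksl1 had 0.33, the adhesion protein L1cam 0.20 and Marcks -0.34. Without saline 1 Marcks was at -0.0637. L1cam averaged 89.7 ± 4.61 CPM with MPTP against 77.9 ± 2.37 with saline, without overlap.

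Promoter sequence was available in the RefSeq table of GRCm38.p6 for 4 of the 9 genes, Stmn3, Tubb2a, Tubb3 and Tuba1a. Each window runs from upstream of the start that RefSeq gives the gene to just past it. For Tubb3 (chr8:123411303-123411602) and Tuba1a (chr15:98953452-98953751) most of the window lies inside the gene as GENCODE places it. For these genes the search thus covers little of the sequence upstream of the GENCODE start. Because factors of the ATF and AP-1 families are known from injured neurons, both strands were searched for the ATF and CREB site TGACGTCA and the AP-1 site TGANTCA, whose matches cannot overlap each other. Only the Tubb2a window held TGACGTCA, from 59 to 52 bases before the start, and none of the 4 held TGANTCA. Over 32851 windows of the same length 1.79% held the former and 7.81% the latter. The stretch around the match in Tubb2a is shown with the site in capitals (GRCm38.p6, chr13:34078020-34078107, minus strand).
Tubb2a: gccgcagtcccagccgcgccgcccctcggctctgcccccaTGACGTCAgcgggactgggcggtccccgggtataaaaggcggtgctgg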

How the data were processed

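Raw counts per gene were deposited by the authors as 1 table of 21761 genes and 8 library columns, each matching 1 sample by title. The submitters' processing notes name TopHat2 (version 2.0.8) and the build mm10. For the counting tool, annotation and strand, nothing is given in the sources used here. Single-end reads of 100 bases were taken from amplified cDNA, per the labels' protocols. Symbols turned into dates (27) were restored by Entrez identifier, and the 90 genes without a symbol held 0.0505% to 0.056% of counts.

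Counts were scaled by TMM, filtered with filterByExpr (15999 genes left) and compared by the robust quasi-likelihood F-test of edgeR 4.0.16 (R 4.3.3) without a covariate, with Benjamini-Hochberg adjustment over all genes and a threshold of 0.05. Each SE was obtained as |log2 fold change|/√F. Log2 CPM used a prior count of 2. Lengths are unions of GENCODE exons. Alternatives used DESeq2 1.42.0 and limma 3.58.1, other scalings and filters, the replicate block, a non-neuronal score as covariate, each library left out, and the longest transcript as length.

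Every one of the 9 genes is named. From each other list up to 3 genes with the smallest p are named, with those called. Genes alike are the 5 (Stmn4) or 2 (others) with the highest r and a mean log2 CPM of at least 1. The members and lists were chosen with earlier results of these data known. Protein sequences were not used here.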

Additional observations from a re-analysis of the deposited data

Results flagged for a closer look

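Stmn2 made up 13.4% of stathmin RNA per kilobase in saline 2, against 10.7% to 11.1% in the other saline libraries, a gap that was 0.871 of the group's whole range and above Dixon's critical value for 4 samples. It was the only one of 36 groups of 4 values checked that stood out, and chance flags about 1 in 20 such groups.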

How the results depend on the processing

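Stmn4 kept its direction and its call under each of the 16 settings planned, and none of the other 8 genes was called under any of the 17 settings. Stmn4 ranged from 0.88 to 1.14. With the score of non-neuronal markers as a covariate and without saline 3, a setting added after seeing the data, 0 of the 9 genes were called higher (Stmn4 at 1.14, edgeR adjusted p = 0.112, the highest over its settings, where the lowest was 2.7e-10). That fit has fewer samples and 1 more term. Without saline 3 the score also did not overlap between the groups (MPTP 2.5294 to 2.9996, saline 1, 2 and 4 2.1142 to 2.4298). Score and treatment thus went together in that fit, which cannot fully separate them, and why the call ended was not tested.

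Over all genes 12 were called higher and 5 lower. With a mean CPM of at least 5, which tests fewer genes, 7 were called higher. DESeq2 called 25 higher and 28 lower. Leaving out each library in turn gave 8 to 138 higher and 0 to 159 lower, the upper ends both without saline 3. Leaving out any library but MPTP 1 moved the number of lower calls by over 1.5 times. With the covariate and without saline 3, 13 were called lower. Without saline 3 the lists above had these calls: 1 lower among other tubulins, 1 higher and 1 lower among structural proteins, 1 lower in folding, 2 lower among modifying enzymes and 2 lower among kinases.

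Of the 8 genes near 0, all but Stmn1 changed sign in some settings, and the cause was not tested. With the covariate, Stmn2 was at 0.044, Stmn3 at 0.0339, Tubb3 at 0.0487, Tubb6 at 0.0912, Tubb2a at 0.0273, Tubb2b at 0.11, Tuba1a at 0.0128 and Dpysl3 at 0.0901. With the covariate and without saline 3, Stmn2 was at 0.18, Tubb6 at 0.073, Tubb2a at 0.11, Tubb2b at 0.20, Dpysl3 at 0.0008, Marcksl1 at -0.0608 and Tubb4a at 0.0176. Leaving out each library gave -0.16 (without MPTP 3) to 0.05 (saline 2) for Stmn2, -0.0778 (saline 3) to 0.0161 (saline 4) for Stmn3, -0.11 (MPTP 1) to 0.0553 (saline 4) for Tubb6 and -0.17 (saline 3) to 0.0659 (saline 2) for Tubb2b. Without a change of sign it gave -0.19 (saline 3) to -0.0747 (MPTP 1) for Stmn1, -0.17 (saline 3) to -0.0231 (saline 1) for Tubb3, -0.24 (saline 3) to -0.0104 (saline 2) for Tubb2a and -0.19 (saline 3) to -0.0522 (saline 1) for Tuba1a.

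With the longest transcript as length, shares in MPTP and saline were 14.0% and 14.4% for Stmn2, 36.2% and 38.3% for Stmn1, 45.1% and 44.9% for Stmn3, 0.42% and 0.388% for Tubb6 and 37.1% and 37.4% for Tuba1a, and 22.9% for Tubb2a in MPTP.

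Libraries with the same replicate number did not deviate together: the correlation of their deviations from the group means was -0.116 to 0.039 over 4 pairs, and 0 of the 4 MPTP libraries correlated best with its own number. With the replicate block 10 genes were called higher and 4 lower, Stmn4 among them (1.01, edgeR adjusted p = 0.0104). Of the members and the genes named in the lists, Fignl1 (SE 0.77) and Tubb6 (SE 0.16) had the fewest counts. Marcks (SE 0.18) and Map6d1 (SE 0.16) had more counts and an SE no smaller than that of Tubb6. The part of depth in these SEs was not tested. Intervals do not cover reads shared between copies.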
